A study of Homo sapiens with 9 samples.

Results

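The genes described here are 10 immediate early regulators outside the AP-1 family, namely EGR1, EGR2, EGR3, IER2, IER3, IER5, ATF3, KLF4, KLF6 and ZFP36. They were taken by symbol from the 24344 genes of the count table, and each symbol matched 1 Ensembl gene. All were measured by RNA sequencing, without strand information, in MDA-MB-231 cells, a line grown from a human breast adenocarcinoma. Cultures had received 1 of 3 injections for 48 h, each with 3 libraries, which the series calls biological replicates without saying at which step they were separated. Compound Kushen Injection (CKI) is made from the herbs Kushen and Baituling, and the other groups received an injection of Kushen alone or of Baituling alone. CKI was used at 2 mg/ml of total alkaloid, and the single injections were brought to the same equivalent. The 3 groups thus share the cell line, the medium with serum and the treatment time, and each of them carries an herb injection. The comparisons ask how these genes stand in the combined injection against each of its parts. Untreated libraries were not analysed here.

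Immediate early genes are transcribed soon after a growth factor, cytokine or stress signal, without new protein synthesis, and their messages are usually short-lived. The classic route runs through MAP kinases to the serum response factor SRF and its Ets-type partners, which sit together on CArG boxes in the promoters of genes such as EGR1 and EGR2. EGR1, EGR2 and EGR3 encode zinc finger transcription factors that bind GC-rich sites. KLF4 and KLF6 encode Krüppel-like zinc finger factors linked to growth arrest and differentiation. ATF3 encodes a leucine zipper factor of the stress response. IER2, IER3 and IER5 encode small proteins without a zinc finger or leucine zipper, of which IER3 affects cell survival and IER5 acts in the heat shock response. ZFP36 encodes tristetraprolin, which binds AU-rich elements in messages and hastens their decay. It thereby acts on the products of many early genes, its own included.

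Sequence upstream of the start is shown for the EGR genes that carry a CArG box, the element through which SRF is known to act on them. RefSeq promoter windows (build GRCh38.p14, 250 bases before to 50 after each listed start) were matched for 8 of the 10 genes. EGR3 and IER3 are named only. The bases from 200 to 11 before a start, the third of those listed for EGR2, are printed 5′ to 3′ on the strand of the gene, with capitals for CArG boxes, for TGACG, a core of the cyclic AMP response element, and for the EGR site GCGNGGGCG, on either strand.
EGR1 (chr5:138465279-138465468, plus strand): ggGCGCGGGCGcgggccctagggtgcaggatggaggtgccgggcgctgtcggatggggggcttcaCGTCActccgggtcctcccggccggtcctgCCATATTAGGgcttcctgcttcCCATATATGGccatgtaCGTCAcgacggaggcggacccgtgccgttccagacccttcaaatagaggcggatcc
EGR2 (chr10:62816377-62816566, minus strand): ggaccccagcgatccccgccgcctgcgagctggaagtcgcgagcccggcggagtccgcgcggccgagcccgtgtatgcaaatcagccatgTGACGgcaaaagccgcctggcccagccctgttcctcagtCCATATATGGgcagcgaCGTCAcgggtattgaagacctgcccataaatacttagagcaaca

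The EGR1 stretch held 2 CArG boxes and the EGR2 stretch 1, and each held 2 copies of TGACG. Over their whole windows, EGR1 and EGR2 were the 2 of 8 genes with a CArG box, which was present in the windows of 1.61% of the 11245 tested genes that had one. The EGR site was found in EGR1, EGR2, KLF4 and KLF6, against 19.1% of genes, and TGACG in EGR1, EGR2, IER2 and KLF4, against 39.5%. The C/EBP-ATF element TGATGNAA was found in ATF3 alone among the 8, against 2.84% of genes. A kappa B site was found in EGR1 and EGR2, against 30.9%. The full element TGACGTCA and the exact Ets letters CCGGAAGT were in none of the 8, against 3.68% and 9.44%. Other forms of the Ets site were not searched, so its absence is not shown. Both strands were searched, and TGACG is part of TGACGTCA. A match describes letters in the window, and binding was not measured.

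Sites of the kind that ZFP36 is known to bind are shown next, since ZFP36 is 1 of the 10 genes. A match describes letters in the message, and neither binding nor decay was measured. The heptamer TATTTAT was searched in the 3′ UTR of the canonical transcript of each gene. For 4 genes, 30 bases around 1 copy are printed, with that copy in capitals (build GRCh37). In IER5 the copies starting at bases 2568, 2572 and 2576 of the 3′ UTR overlap within the printed stretch. Only the first of them is in capitals.
ZFP36 (chr19:39899836-39899865, plus strand): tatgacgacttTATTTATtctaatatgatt
IER3 (chr6:30711314-30711343, minus strand): aggtctcttggTATTTATtgagctttgtgg
IER5 (chr1:181061579-181061608, plus strand): gtgtcttccttTATTTATttatttatttaa
ATF3 (chr1:212794046-212794075, plus strand): aaaatattactTATTTATcctagtattcct

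IER3 and IER5 had 4 such heptamers each, ZFP36 had 3, and ATF3 and KLF6 had 1 each. Hence 5 of the 10 genes held at least 1, against 35.6% of the 13120 tested coding genes with a 3′ UTR. The longer nonamer TTATTTATT was found in 2 of the 10, IER5 and ZFP36, against 9.46% of these coding genes. IER3, ATF3 and KLF6 had the heptamer without the nonamer. The shorter pentamer ATTTA was found in 9 of the 10, in all but IER2, against 72.5%. Per kilobase of 3′ UTR it was densest in IER3 (8.14) and ZFP36 (7.06), with a median of 1.96 over the 10 genes and 1.69 over all tested coding genes. The 10 genes were compact. The median gene span was 5066 bp against 33696 bp for the 13130 tested coding genes. Among them 9 spanned under 10000 bp, against 18.4% of tested coding genes. ATF3, at 55444 bp, was the exception. Transcripts of 7 of the 10 genes had at most 2 exons, against 6.46% of tested coding genes.

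The total count per library was between 20144628 and 23782071. Of the markers set for the cell line, VIM, CD44, AXL, CAV1 and KRT18 were all present, and their summed level, as read counts scaled to library size (CPM), was highest in Baituling (4722 to 4872), followed by Kushen (2294 to 2332) and CKI (1769 to 1839). Of the luminal and epithelial markers, ESR1 and PGR had at most 4 counts in any library, whereas ERBB2 averaged 56.8 to 104 CPM across groups, and the 6 genes together summed to 141 to 145 CPM in Baituling, 80.5 to 83.4 in Kushen and 72.1 to 76.4 in CKI. Blood and vessel markers summed to at most 11.5 CPM in a library, mostly CD14. The nuclear RNAs NEAT1 and MALAT1 set the Baituling libraries apart. NEAT1 lay between 56.5 and 74.7 CPM there, against 708 to 1114 in CKI and 682 to 1311 in Kushen. MALAT1 lay between 67.9 and 83.1 CPM, against 333 to 705 in CKI and 344 to 688 in Kushen. The part that these markers and RNAs have in the differences from Baituling reported here was not tested. In bulk RNA a change in the share of cells that express a gene and a change in RNA per cell cannot be told apart.

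All 10 genes passed the filter on low counts. To be called, a gene needed an adjusted p under 0.05 in edgeR's quasi-likelihood test, adjusted over the 14195 genes tested, together with a log2 fold change above 1 or below -1. In CKI against Kushen, 5 of the 10 were called higher and none lower, where 1.7% of all genes tested were called higher and 0.197% lower. These 5 were EGR1, EGR2, EGR3, ATF3 and ZFP36. Without the fold threshold 9 of the 10 were higher (19.6% of all genes) and 0 lower (20.2%), and KLF6 alone did not pass. Libraries did not overlap for any of the 10, of which 9 were higher (25.2%) and KLF6 lower (24.2%). In CKI against Baituling the same 5 genes were called higher, against 11.2% of all genes, and none lower (7.91%). Scaled by library totals, the genes called over all genes were 2527 higher and 630 lower in this comparison, in place of 1592 and 1123. Without the fold threshold 7 were higher (39.1%) and 2, IER5 and KLF6, were lower (37%). The libraries of these 9 did not overlap, in the same directions (40.3% and 38% of all genes). Between Kushen and Baituling none of the 10 was called, where 8.5% of all genes were called higher and 6.73% lower. DESeq2 also called 0 of the 10. An adjusted p under 0.05 was reached by 8 of them, EGR2 higher (35.6%) and the other 7 lower (36.1%), and at an unadjusted p under 0.05 the same 8 passed. Libraries did not overlap for EGR2, which was higher (36.4%), and for 6 that were lower (36.7%). Over all genes, library totals gave 1813 called higher and 618 lower here, in place of 1207 and 955. The median log2 fold change of the 10 genes was 1.12, 0.89 and -0.36 in the 3 comparisons, and that of all genes tested was 0.0079, 0.034 and 0.018. The first 2 comparisons share the CKI libraries and the last 2 the Baituling libraries, so that they are not independent of each other. The 10 genes were chosen with earlier results of these data known, so their counts beside the shares of all genes are not independent evidence.

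**Figure D1:**
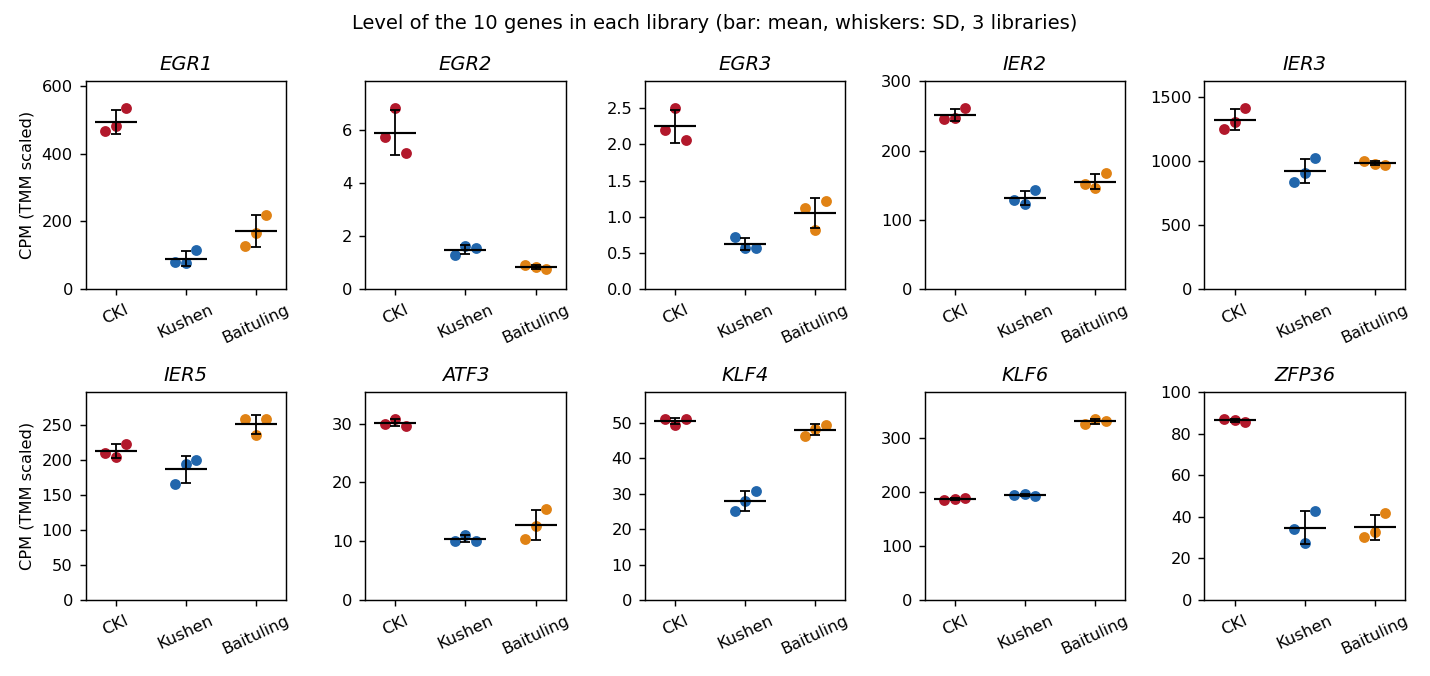
CPM, scaled by the trimmed mean of M values (TMM), of the 10 genes in each library by injection, with each panel on its own axis from 0. Points are libraries, the long bar is the mean and the whiskers are the SD of 3 libraries. The 3 CKI points of EGR1, EGR2, EGR3, IER2, IER3, ATF3 and ZFP36 lie above all other points, and the 3 Baituling points of IER5 and of KLF6 do so in their panels.

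EGR1 (ENSG00000120738, chromosome 5, 137801168 to 137804992, build GRCh37 here and below) was the most abundant of the EGR genes and had the largest difference between CKI and Kushen among the 10. Its level was 466, 482 and 534 CPM in the CKI libraries, 79.9, 76.9 and 115 in Kushen and 128, 166 and 220 in Baituling. The 3 groups did not overlap, and CKI was highest, Baituling intermediate and Kushen lowest. EGR1 was 5.47-fold higher in CKI than in Kushen, a log2 fold change of 2.45 ± 0.14 (SE, adjusted p 2.86e-10), which placed it at rank 15 among the 14195 genes tested. Against Baituling it was 2.89-fold higher (1.53 ± 0.14, adjusted p 5.93e-09), at rank 817. For Kushen against Baituling the log2 fold change was -0.92 ± 0.14 (adjusted p 1.15e-05), short of the fold threshold. That last value passed the threshold when Baituling replicate 1 (-1.09) or Kushen replicate 3 (-1.11) was left out. The coefficient of variation of EGR1 was 7.10% in CKI but 23.3% in Kushen and 27.1% in Baituling.

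EGR2 (ENSG00000122877, chromosome 10, 64571756 to 64578927) was scarce. The CKI libraries held 146, 169 and 130 counts (5.73, 6.81 and 5.13 CPM), the Kushen libraries 32, 40 and 35 (1.29, 1.64 and 1.55 CPM) and the Baituling libraries 19, 15 and 14 (0.927, 0.823 and 0.773 CPM). No groups overlapped. An unnamed gene on the same strand shares 145 bases of exon with EGR2, and its reads cannot be told apart from those of EGR2 here. EGR2 was the only 1 of the 10 that was higher in Kushen than in Baituling past an adjusted p of 0.05. It had the largest difference from Baituling among the 10, 6.94-fold in CKI (log2 fold change 2.79 ± 0.20, adjusted p 1.37e-10), and was 3.94-fold higher in CKI than in Kushen (1.98 ± 0.17, adjusted p 3.64e-08). Kushen exceeded Baituling by 0.82 ± 0.25 (adjusted p 0.00676), a value that reached 1.03 and was called when libraries were scaled by their totals.

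EGR3 (ENSG00000179388, chromosome 8, 22545172 to 22550993) was scarcer still. It had 56, 62 and 52 counts in CKI (2.20, 2.498 and 2.05 CPM), 18, 14 and 13 in Kushen (0.724, 0.574 and 0.577 CPM) and 23, 15 and 22 in Baituling (1.12, 0.823 and 1.21 CPM). An unnamed gene on the opposite strand shares 164 bases of its exons, and without strand their reads cannot be told apart. The groups were in the order of EGR1, CKI above Baituling above Kushen, without overlap. CKI exceeded Kushen by 1.83 ± 0.24 on the log2 scale (3.57-fold, adjusted p 7.64e-06) and Baituling by 1.09 ± 0.23 (2.13-fold, adjusted p 0.00026). The second call was lost without Baituling replicate 2, when the log2 fold change was 0.94 with an adjusted p of 0.00303. Counts this low leave the size of both differences imprecise, and Kushen against Baituling (-0.75 ± 0.29, adjusted p 0.0266) had the largest SE relative to its size. The latter no longer passed with DESeq2 (adjusted p 0.0551), under library totals (-0.53, adjusted p 0.103) or without Baituling replicate 1 or 3 or Kushen replicate 2 or 3 (adjusted p 0.0712 to 0.0934).

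The IER genes were abundant, and none was called in any comparison. IER3 (ENSG00000137331, chromosome 6, 30710976 to 30712325) was the most abundant of the 10. It stood at 1252, 1308 and 1415 CPM in CKI, 838, 906 and 1027 in Kushen and 1006, 976 and 974 in Baituling. CKI lay above both single injections without overlap, while Kushen and Baituling overlapped. The difference was 1.43-fold from Kushen (log2 fold change 0.52 ± 0.06, adjusted p 1.29e-06) and 1.34-fold from Baituling (0.43 ± 0.06, adjusted p 1.75e-06). Kushen against Baituling gave -0.09 ± 0.06 (adjusted p 0.159), and its sign turned under library totals (0.12, adjusted p 0.0427), while without Kushen replicate 3 it passed at -0.16 (adjusted p 0.0103). The antisense gene IER3-AS1, which overlaps IER3, had 0 to 9 counts per library and HCG20, which also overlaps it, 0 to 44, against 17638 to 35824 for IER3.

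IER2 (ENSG00000160888, chromosome 19, 13261225 to 13265725), which encodes a nuclear protein, had the same order of groups as EGR1. It was at 245, 247 and 261 CPM in CKI, 129, 123 and 144 in Kushen and 152, 146 and 168 in Baituling, and no groups overlapped. Unnamed genes on the opposite strand share 662 and 946 bases with its exons, so that reads from either cannot be told apart. The step from Kushen to Baituling was small (-0.24 ± 0.06 for Kushen, adjusted p 0.00112) and did not pass under library totals (-0.026, adjusted p 0.685). CKI was above Kushen by 0.93 ± 0.06 (1.91-fold, adjusted p 3.73e-10), just under the fold threshold, which it passed under library totals (1.01). Against Baituling the difference was 0.69 ± 0.06 (1.62-fold, adjusted p 1.14e-09).

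IER5 (ENSG00000162783, chromosome 1, 181057836 to 181062036) was ordered differently, with Baituling highest. Its level was 211, 205 and 224 CPM in CKI, 166, 195 and 201 in Kushen and 259, 236 and 259 in Baituling. No groups overlapped, although CKI and Kushen lay close together. CKI exceeded Kushen by 0.19 ± 0.06 (adjusted p 0.0173), which no longer passed without Kushen replicate 1 (0.11, adjusted p 0.0885) or CKI replicate 3 (0.15, adjusted p 0.0869). CKI against Baituling gave -0.24 ± 0.06 (adjusted p 0.00141). The latter sign turned under library totals (0.049, adjusted p 0.416). Kushen was below Baituling by -0.43 ± 0.06 (adjusted p 3.15e-06).

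ATF3 (ENSG00000162772, chromosome 1, 212738676 to 212794119) was highest in CKI. The CKI libraries were at 29.97, 30.8 and 29.6 CPM, the Kushen libraries at 10.0, 11.1 and 10.1 and the Baituling libraries at 10.4, 12.5 and 15.5. CKI did not overlap with either single injection, but Kushen and Baituling overlapped each other. ATF3 was 2.89-fold higher in CKI than in Kushen (log2 fold change 1.53 ± 0.10, adjusted p 5.51e-10) and 2.36-fold higher than in Baituling (1.24 ± 0.10, adjusted p 5.54e-10). Kushen against Baituling gave -0.29 ± 0.11 (adjusted p 0.0219). It no longer passed without Baituling replicate 3 (-0.14, adjusted p 0.228), without Kushen replicate 3 (adjusted p 0.0693), with these groups fitted alone (adjusted p 0.0504), under upper quartile scaling (adjusted p 0.0719) or under library totals (-0.083, adjusted p 0.511). The coefficient of variation was 1.98% in CKI, 5.97% in Kushen and 19.9% in Baituling. Each rests on 3 libraries, and differences in spread between the groups were not tested.

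The KLF genes differed in their order of groups. KLF4 (ENSG00000136826, chromosome 9, 110247133 to 110252763) was at 51.0, 49.3 and 51.0 CPM in CKI, 24.98, 27.9 and 30.7 in Kushen and 46.3, 48.1 and 49.4 in Baituling. Its means were in the order of EGR1, CKI above Baituling above Kushen. The lowest CKI library lay within the Baituling range, and Kushen lay below both. An unnamed gene on the opposite strand shares 357 bases with its exons, and without strand their reads cannot be told apart. CKI exceeded Kushen by 0.86 ± 0.06 (1.81-fold, adjusted p 6.33e-09), and Kushen was below Baituling by -0.78 ± 0.07 (adjusted p 2.00e-09). CKI against Baituling gave 0.074 ± 0.062 (adjusted p 0.28) and did not pass the test, although it passed under library totals (0.36, adjusted p 2.20e-05) and upper quartile scaling (0.14, adjusted p 0.0362).

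KLF6 (ENSG00000067082, chromosome 10, 3818188 to 3827473) was, like IER5, highest in Baituling, and its CKI and Kushen levels lay close together. It was at 186, 188 and 190 CPM in CKI, 195, 197 and 193 in Kushen and 327, 336 and 332 in Baituling, and its coefficient of variation was at most 1.45% in a group. The CKI libraries all lay just below the Kushen libraries, but the difference did not pass the test (-0.05 ± 0.04, adjusted p 0.283) and turned sign under library totals (0.022). Against Baituling the log2 fold change of KLF6 was -0.82 ± 0.04 in CKI (adjusted p 2.26e-13) and -0.77 ± 0.04 in Kushen (adjusted p 9.10e-13), so that Baituling was 1.77-fold and 1.70-fold higher.

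ZFP36 (ENSG00000128016, chromosome 19, 39897487 to 39900052) had overlapping levels in the single injections and a higher one in the combination. Its level was 87.2, 86.8 and 85.7 CPM in CKI, 34.2, 27.4 and 43.1 in Kushen and 30.5, 32.8 and 41.8 in Baituling. The CKI libraries were apart from all others, and the Baituling range lay within that of Kushen. ZFP36 was 2.49-fold higher in CKI than in Kushen (1.31 ± 0.11, adjusted p 2.81e-08) and 2.48-fold higher than in Baituling (1.31 ± 0.11, adjusted p 2.25e-09). Kushen against Baituling was -0.0068 ± 0.1192 (adjusted p 0.962).

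**Figure D2:**
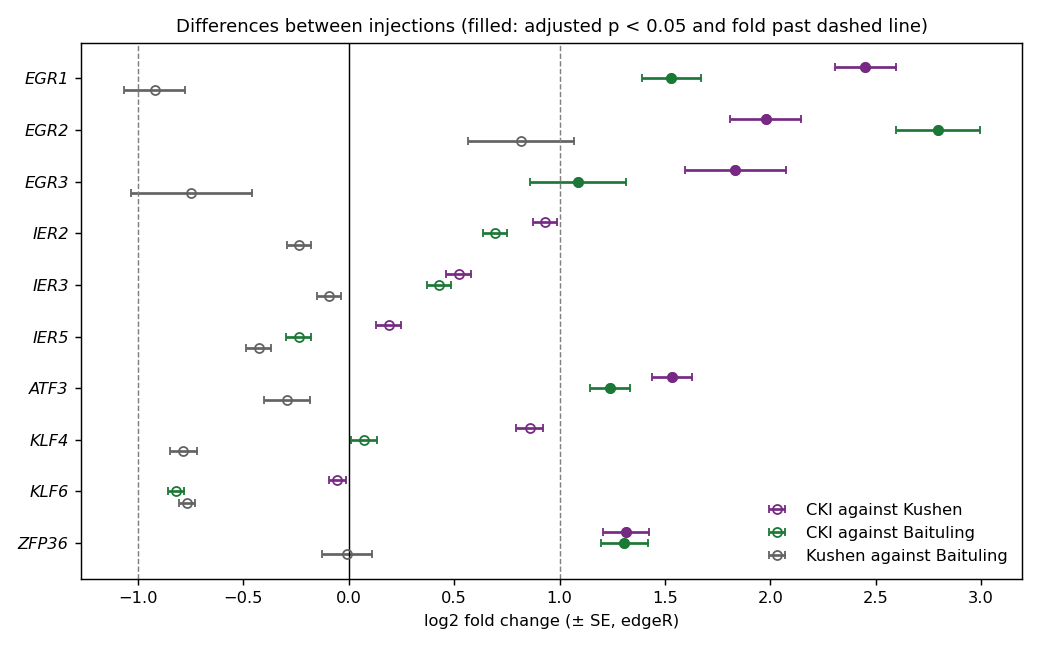
Log2 fold change of each gene (horizontal axis) in the 3 comparisons, with the SE of the edgeR fit as whiskers, and dashed lines at the fold threshold. Filled points were called. The purple and green points of EGR1, EGR2, EGR3, ATF3 and ZFP36 are filled and lie right of 1, and no grey point is filled.

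In each group replicate 3 had the highest level for 6 of the 10 genes, and the share over all genes was not computed. In CKI these were EGR1, IER2, IER3, IER5, KLF4 and KLF6, in Kushen EGR1, IER2, IER3, IER5, KLF4 and ZFP36, and in Baituling EGR1, EGR3, IER2, ATF3, KLF4 and ZFP36. The common biological coefficient of variation over all genes and groups, which leaves out counting noise, was 4.53%. The coefficient of variation of CPM within a group includes that noise, so the measures are not alike. It was 27.1%, 19.9% and 17.0% for EGR1, ATF3 and ZFP36 in Baituling. In Kushen it was 23.3%, 5.97% and 22.6% for the same genes, and in CKI 7.10%, 1.98% and 0.90%. EGR3 had 19.5% in Baituling, on 15 to 23 counts per library. The direction of CKI against each single injection for the 5 called genes held when any 1 library was left out. EGR1 then ranged from 2.34 to 2.64 against Kushen and from 1.36 to 1.75 against Baituling on the log2 scale, and ZFP36 from 1.16 to 1.48 and from 1.21 to 1.45.

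Levels were compared between genes as RPKM, the CPM divided by the exon length in kilobases. In CKI the order was IER3 (981 RPKM), EGR1 (158), IER2 (81.6), IER5 (50.7), ZFP36 (43.8), KLF6 (30.6), KLF4 (13.8), ATF3 (7.54), EGR2 (1.59) and EGR3 (0.447), and the libraries of neighbours in this order did not overlap. EGR1 was at rank 2 in CKI, rank 3 in Baituling (54.6) and rank 5 in Kushen (28.9). In Kushen the libraries overlapped between IER5 and IER2 and between KLF6 and EGR1. In Baituling IER5, EGR1, KLF6 and IER2 overlapped from each to the next, at means of 59.9 to 50.5 RPKM, as did EGR2 and EGR3. IER3 was first and EGR3 last in every group. These orders depend on the length used, here the union of annotated exons. It exceeded the canonical transcript for genes such as IER2 (3079 against 2110 bases) and KLF6 (6139 against 4590). For EGR1 and IER5 both lengths were equal. Orders by canonical length were not computed.

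**Figure D3:**
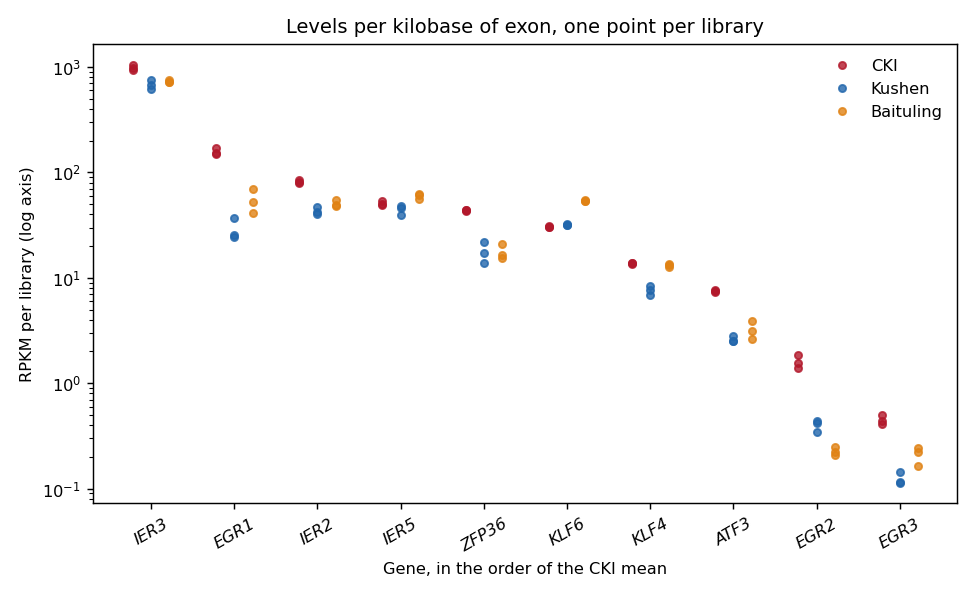
RPKM of the 10 genes on a log axis, 1 point per library, with genes in the order of their CKI mean. IER3 sits near the top of the axis in each group, and EGR1 drops from 158 RPKM in CKI to 28.9 in Kushen.

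The likeness of the 10 patterns was described by Pearson's r of log2 CPM over the 9 libraries, which share 3 treatments and therefore are not 9 independent points. EGR1, EGR3, IER2, IER3, ATF3 and ZFP36 were alike, with r between 0.86 and 0.98 in their 15 pairs, a set put together after the values were seen. The closest pair was EGR1 and IER2 (0.98). KLF4 had r of 0.82 with EGR1, 0.78 with EGR3 and 0.57 to 0.74 with IER2, IER3, ATF3 and ZFP36. EGR2 had 0.76 with EGR1, 0.75 with EGR3, 0.84 with IER2, 0.85 with IER3, 0.87 with ATF3 and 0.90 with ZFP36. KLF6 had negative r with all except IER5 (0.78) and KLF4 (0.37), the lowest with EGR2 (-0.75). Among 11956 other genes whose log2 CPM averaged 1 or more, the 3 most like EGR1 were RRAD (0.99), JUNB (0.98) and ZFP82 (0.98). SERTAD1 (0.99), JUNB (0.99) and NFKB2 (0.98) were the most like IER2. TNFSF13 (0.98), ARID3B (0.97) and IL1A (0.97) were the most like EGR3, and ZNF622, SFTA1P and PLEKHM1 the most like EGR2, at 0.99 or above. KLF4 was most like RND1 (0.99), NR4A1 (0.99) and SIK1 (0.99). KLF6 was most like AURKA, TPX2 and RAD21, all at 0.999. ATF3 was most like PARD6B (0.99), ASB6 (0.98) and RSRC2 (0.98), and ZFP36 most like GPRC5B (0.99), BTG1 (0.98) and RBM28 (0.98). For IER3 the nearest were KCTD13 (0.98), SAFB2 (0.98) and PPP1R18 (0.97), and for IER5 MTG2 (0.99), HS3ST1 (0.99) and DDX28 (0.98).

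**Figure D4:**
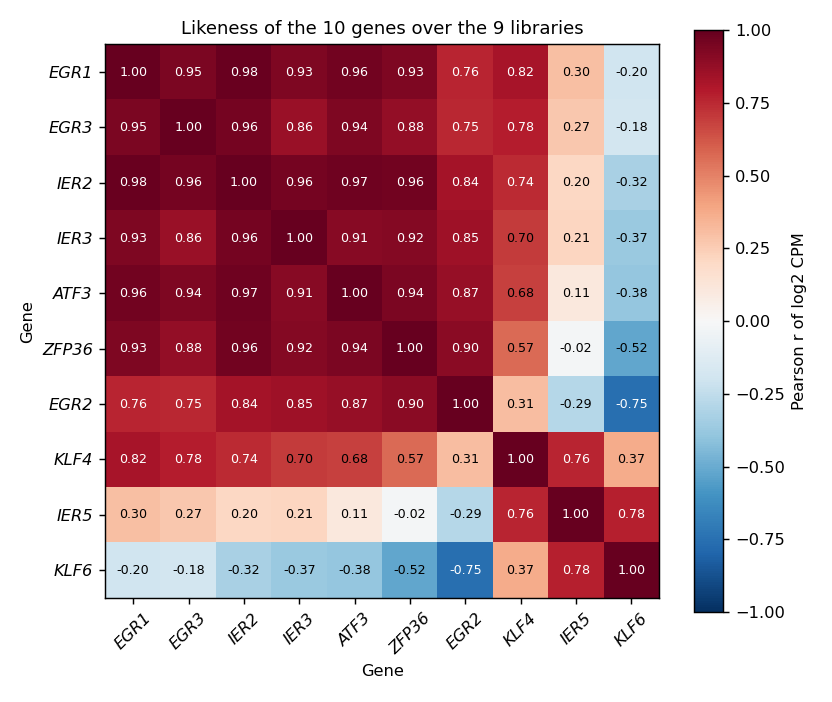
Pearson's r of log2 CPM between the 10 genes over the 9 libraries, with the colour scale from -1 to 1. The upper left block of EGR1, EGR3, IER2, IER3, ATF3 and ZFP36 is uniformly high, from 0.86 to 0.98, while the KLF6 column is mostly negative.

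Known regulators of the EGR genes were examined next. Of 8 genes for SRF, its partners and the EGR corepressors, none was called in any comparison. In CKI against Kushen 3 passed an adjusted p of 0.05, all higher, with a list median of 0.029. NAB2, a corepressor that EGR factors induce, was among them at 0.42 ± 0.05 (adjusted p 4.49e-06), and SRF itself gave 0.049 ± 0.047 (adjusted p 0.44). Both were named after their values were seen. Against Baituling 3 were higher and 2 lower in CKI, and 3 were higher and 3 lower in Kushen. For this list and those below, the shares of all genes passing serve as background. They were 19.6% higher and 20.2% lower in CKI against Kushen. Against Baituling they were 39.1% and 37% in CKI, and 35.6% and 36.1% in Kushen. Shares called higher and lower were 1.7% and 0.197%, 11.2% and 7.91%, and 8.5% and 6.73%, in the same order. Counts near these shares do not set a list apart.

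Paralogs of the 10 genes were mixed. Of 14, 4 were higher and 2 lower in CKI than in Kushen, with a list median of 0.0033. EGR4, the remaining EGR gene, was the 1 called (1.99 ± 0.49, adjusted p 0.00316), on 18 to 31 counts in the libraries of CKI and 2 to 10 in those of Kushen. Against Baituling 5 were higher and 5 lower in CKI, and the called genes were IER5L (-1.84 ± 0.11), JDP2 (-1.36 ± 0.10), which encodes a leucine zipper factor related to ATF3, and KLF2 (-1.17 ± 0.13). For Kushen against Baituling 4 were higher and 8 lower, and IER5L was called (-2.16 ± 0.12). IER5L averaged 44.2 CPM in Baituling, 12.4 in CKI and 9.90 in Kushen.

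Other immediate early genes outside AP-1 were set beside the 10. Of 20 in CKI against Kushen, 15 were higher and 2 lower, 6 of them called, and the list median was 0.45. The 3 called with the largest change were HES1, a Notch target (1.93 ± 0.11), and the nuclear receptors NR4A1 (1.73 ± 0.16) and NR4A3 (1.59 ± 0.26). In CKI against Baituling 9 were higher and 8 lower with a median of 0.037. NR4A3 (2.31 ± 0.30), on 7 to 8 counts per Baituling library, the antiproliferative gene BTG2 (1.85 ± 0.37), on 2 to 13, and TIPARP (1.56 ± 0.04), a target of the aryl hydrocarbon receptor, had the largest called changes. For Kushen against Baituling 4 were higher and 11 lower with a median of -0.42, and the kinase gene SGK1 (-2.49 ± 0.07), HES1 (-1.67 ± 0.11) and NR4A1 (-1.65 ± 0.17) had the largest called changes.

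**Figure D5:**
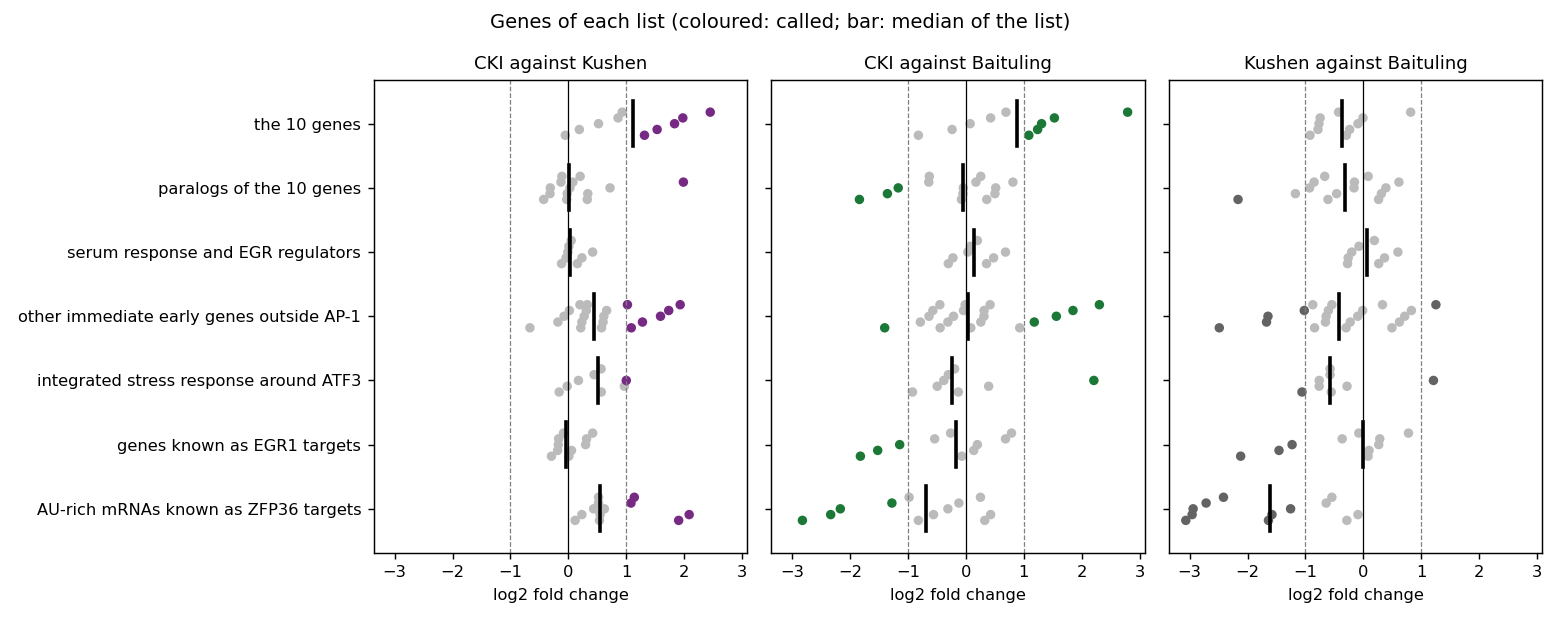
Log2 fold change of each tested gene of the 10 and of 6 related lists in the 3 comparisons. Coloured points were called, grey points were not, the bar is the median of the list and dashed lines mark the fold threshold. The 10 genes have the highest median of the 7 lists in both comparisons of CKI, and the AU-rich messages the lowest in both comparisons with Baituling.

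ATF3 was set beside 8 genes of the integrated stress response, in which ATF4 is the factor that induces ATF3. In CKI against Kushen 6 were higher and 1, ATF4 (-0.16, adjusted p 0.00699), was lower, with a list median of 0.50. DDIT3, which encodes the stress factor CHOP, was the 1 called, at the threshold (1.0001 ± 0.0730, adjusted p 5.19e-09). In CKI against Baituling 2 were higher and 5 lower with a median of -0.25, and DDIT3 was called at 2.21 ± 0.09. In Kushen against Baituling 1 was higher and 7 lower with a median of -0.57, DDIT3 called higher (1.21 ± 0.09) and TRIB3 called lower (-1.06 ± 0.06). The DDIT3 level was 8.97 ± 1.33 CPM (SD, n = 3) in Baituling, 20.8 ± 1.37 in Kushen and 41.6 ± 1.44 in CKI, whereas the ATF3 libraries of Kushen and Baituling overlapped.

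Genes known as EGR1 targets were set beside EGR1. NAB2 is on this list as well as on that of the regulators. In CKI against Kushen 2 of 10 were higher and 3 lower, with none called and a median of -0.038. In CKI against Baituling 4 were higher and 5 lower, and the called genes were PDGFB (-1.82 ± 0.23), FN1 (-1.52 ± 0.05) and PDGFA (-1.14 ± 0.09), which encode growth factor chains and fibronectin. In Kushen against Baituling 3 were higher and 4 lower, and these same 3 genes were called (-2.12 ± 0.24, -1.23 ± 0.05 and -1.46 ± 0.09).

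Messages with AU-rich elements known as ZFP36 targets were set beside ZFP36. Of 14, 12 were tested, and TNF and CCL20 had at most 5 counts in a library. IER3 is on this list too, as is MYC, which is also among the other immediate early genes above. In CKI against Kushen 11 of 12 were higher and 0 lower, with a median of 0.54. The 3 called with the largest change were CSF2 (2.09 ± 0.11), PTGS2 (1.91 ± 0.13) and CXCL8 (1.14 ± 0.08), which encode a growth factor of myeloid cells, a prostaglandin synthase and a chemokine. In CKI against Baituling 3 were higher and 9 lower, with a median of -0.69, led by CXCL1 (-2.82 ± 0.11), CXCL2 (-2.34 ± 0.13) and IL6 (-2.17 ± 0.07). In Kushen against Baituling 11 were lower and 0 higher, with a median of -1.61, led by CSF2 (-3.07 ± 0.11), CXCL2 (-2.96 ± 0.14) and CXCL1 (-2.94 ± 0.11). The ZFP36 message itself gave -0.0068 there, and its protein was not measured. The part of ZFP36 in the changes of this list was not tested. These lists hold cytokine and stress genes that earlier results of these libraries had already shown to move, so their direction is not independent evidence.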

How the data were processed

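The authors trimmed reads with Trim Galore 0.3.7, aligned them to hg19 with STAR 2.5.3a and deposited raw counts per gene for 9 libraries. The counting program and annotation are not given in the sources used here. The 222 rows repeating an Ensembl gene with identical counts were dropped, leaving 24344 genes, of which 24224 were named from GENCODE v44 on GRCh37 (the assembly of hg19) and 99 from RefSeq. With edgeR 4.0.16 in R 4.3.3, genes were kept by filterByExpr (minimum count 10, minimum total 15), scaled by TMM and fitted in a single quasi-likelihood model with group as the only term. Tests were two-sided, with Benjamini-Hochberg adjustment across 14195 genes, and the SE is the log2 fold change divided by the root of F. For 3 libraries against 3 the smallest exact permutation p is 0.1, and p-values measure only the spread between these libraries. RPKM uses TMM-scaled CPM and the union of exons.

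Members and lists were chosen with earlier results of these data known. Beyond the 10 genes, at most 3 called genes per list and comparison are named, by size of change, and the 3 genes most like each member. As exceptions, NAB2, SRF and ATF4 are given with values although they were not called. TGACG and the TATTTAT heptamer were added to the motifs later than the others. Replicate pairs differed by more than sampling noise (chi-square per gene 1.70 to 6.85). The share of mitochondrial counts was not analysed here. Alternatives were library totals, upper quartile scaling, DESeq2 1.42.0, other filters, thresholds, samples and rows, a replicate block and leaving out each library. The fit was tested on simulated data.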

Additional observations from a re-analysis of the deposited data

How the results depend on the processing

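Each value of the 10 genes was recomputed under 19 alternatives. The called genes kept their direction in all of them in both comparisons of CKI. Without the fold threshold 9 of the 10 passed when CKI was compared with Kushen, 9 with Baituling, and 8 when Kushen was compared with Baituling. With the test set against a log2 fold change of 1, 3 were called in CKI against Kushen, EGR3 and ZFP36 being lost, and 4 in CKI against Baituling, EGR3 being lost. In Kushen against Baituling, library totals gave 1 called gene (EGR2), and leaving out each library gave 0 to 1. Scaling by library totals shifted the all-gene median by 0.075, 0.29 and 0.21 (log2) in the 3 comparisons. It turned the sign of IER3 (0.12) and ZFP36 (0.20) in Kushen against Baituling, of IER5 in CKI against Baituling (0.049) and of KLF6 in CKI against Kushen (0.022). ZFP36 in Kushen against Baituling, near 0 in the main analysis, also turned under upper quartile scaling (0.062), the filter of at least 10 counts in every library (0.026), a fit of the 2 groups only (0.011) and the rows as deposited (0.0049), and ranged from -0.17 to 0.14 when a library was left out. The cause was not tested. The number of genes called over all genes differed by over 1.5 times under the filter of at least 10 counts in every library (102, 1808 and 1415 against 270, 2715 and 2162 in the order of the 3 comparisons) and with the test against a log2 fold change of 1 (42, 1515 and 1029), and without the fold threshold (5652, 10802 and 10168). Over all genes, replicates with the same number did not deviate together (correlation -0.075 to 0.12 in 9 pairs, over 0.1 in 1). The fit with the replicate block called 5, 5 and 0 of the 10 genes, as without it, with EGR1 at 2.47 in CKI against Kushen. The adjusted p of EGR1 became smaller with the block in all 3 comparisons (8.38e-13, 7.54e-12 and 2.08e-08). Replicate 3 was highest for EGR1 in each group, and a replicate effect on single genes was not tested. Depth limits EGR2 and EGR3, which had 13 to 169 counts per library.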
